A study of Homo sapiens with 6 samples.

Results

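The plasminogen activation system and the initiation of blood clotting were examined in Caki2 cells through 9 genes, which were taken by symbol from the 25369 genes counted in every sample. They were PLAU and PLAT (the activators of plasminogen), PLAUR (the receptor of the first) and the serpins SERPINE2, SERPINB2 and SERPINA1. The others were F3, TFPI and TFPI2 (tissue factor, its Kunitz-type inhibitor and a relative of that inhibitor). All 9 symbols were found in the 6 samples, and 8 of them had enough reads to be tested. SERPINB2 had no read in any sample.

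Caki2 is a human clear cell renal cell carcinoma (ccRCC) line that makes no PBRM1 protein. PBRM1 is the polybromo subunit of the PBAF chromatin remodeling complex. Caki2+Vector cells carried an empty doxycycline-inducible lentiviral vector and Caki2+PBRM1 cells the same type of vector with full-length PBRM1, with 3 replicates of each (A, B and C). Both lines were kept in doxycycline at 2 µg/mL and had been selected with antibiotics after infection, so that each group is 1 stable line whose PBRM1, where present, comes from an induced viral construct and not from the native promoter. Line and PBRM1 status thus coincide, and their effects cannot be told apart here. The study calls these samples biological replicates, but the labels do not say whether they were separate cultures. P-values then measure the spread between these samples, which may be technical.

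Plasminogen is an inactive precursor in plasma. Urokinase, the product of PLAU, and tissue-type plasminogen activator, the product of PLAT, cut it to plasmin, a serine protease that dissolves fibrin and degrades matrix around cells. PLAUR holds urokinase at the cell surface, while serpins such as those of SERPINE2 and SERPINB2 trap the activators in an inactive complex. Tissue factor, encoded by F3, is the membrane receptor that starts clotting once it binds coagulation factor VII, and TFPI is its direct inhibitor. TFPI2 is related to TFPI by sequence but mainly inhibits plasmin and other trypsin-like proteases of the matrix.

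Reads on genes ranged from 7312955 to 10835355 per sample. The values were normalized counts, that is, reads per gene divided by a size factor of the sample. The transcript of PBRM1 itself rose from 187 ± 7.37 to 2545 ± 127 normalized counts upon re-expression (SD, n = 3; log2 fold change 3.76, SE 0.06), so the libraries match their labels. Caki2+Vector A stood apart from its group, with a chi-square per degree of freedom of 3.14 and 2.86 against Caki2+Vector B and C, where the remaining pairs of replicates had 1.19 to 1.35. Results for the 8 tested genes are therefore also given without it where it changed a call. Of 10 markers of renal epithelium and ccRCC, 9 reached 10 normalized counts in at least 3 samples, among them PAX8, KRT8 and VIM. EPCAM did so at low means (12.3 in Caki2+Vector and 16.8 in Caki2+PBRM1). CA9 did not, with means of 1.58 in Caki2+Vector, near the floor, and 10.3 in Caki2+PBRM1. Summed markers of endothelium, the usual source of TFPI and PLAT in tissue, stayed between 0.9 and 6.2 normalized counts in every sample, with CDH5 and TEK at 0.

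The sequences just upstream of the transcription start are given for the genes of the 9 that rose in Caki2+PBRM1 and for SERPINB2, which had no read in either line. They come from RefSeq (promoter table of GRCh38.p14), each matched exactly once on its chromosome of GRCh37, from which the coordinates are taken, and are limited to the bases that lie in no annotated exon of the gene. They run 5′ to 3′ on the strand of the gene and end at the base before the start in F3, TFPI2 and SERPINB2. Those of PLAU and TFPI end earlier, where exons of other transcripts begin. Capitals mark TGANTCA, the letters of the AP-1 site, searched on both strands.
F3 (chr1:95007316-95007565, minus strand): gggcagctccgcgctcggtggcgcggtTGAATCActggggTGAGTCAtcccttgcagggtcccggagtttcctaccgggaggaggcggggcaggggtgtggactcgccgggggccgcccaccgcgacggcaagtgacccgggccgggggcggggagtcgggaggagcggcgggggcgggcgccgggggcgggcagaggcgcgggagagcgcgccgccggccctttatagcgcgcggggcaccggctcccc
TFPI2 (chr7:93520066-93520315, minus strand): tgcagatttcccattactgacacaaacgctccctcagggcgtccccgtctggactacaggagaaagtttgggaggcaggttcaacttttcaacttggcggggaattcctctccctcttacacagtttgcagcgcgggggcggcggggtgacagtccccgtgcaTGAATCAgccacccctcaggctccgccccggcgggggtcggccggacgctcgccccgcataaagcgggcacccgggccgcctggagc
PLAU (chr10:75670640-75670861, plus strand): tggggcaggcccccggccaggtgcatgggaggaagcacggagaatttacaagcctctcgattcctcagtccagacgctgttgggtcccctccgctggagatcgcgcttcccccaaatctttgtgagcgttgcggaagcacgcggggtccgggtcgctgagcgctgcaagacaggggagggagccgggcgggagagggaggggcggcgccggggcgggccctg
TFPI (chr2:188419220-188419412, minus strand): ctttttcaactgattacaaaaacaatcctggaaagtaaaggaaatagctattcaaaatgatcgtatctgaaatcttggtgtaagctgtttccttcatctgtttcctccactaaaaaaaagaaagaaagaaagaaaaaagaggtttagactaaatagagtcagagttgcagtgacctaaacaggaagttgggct
SERPINB2 (chr18:61554689-61554938, plus strand): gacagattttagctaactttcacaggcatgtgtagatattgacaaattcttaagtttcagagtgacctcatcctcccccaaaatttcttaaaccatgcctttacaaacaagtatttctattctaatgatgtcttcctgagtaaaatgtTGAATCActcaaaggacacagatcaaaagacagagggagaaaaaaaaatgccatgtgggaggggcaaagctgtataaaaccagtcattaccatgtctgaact

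Of the 9 genes, 8 had a promoter in that table and 4 of these held the AP-1 letters within 250 bases before the start nearest to that of the reference transcript. F3 held them 2 times, with first bases at -223 and -210 counted back from the start. TFPI2, SERPINB2 and PLAUR held them once each, at -87, -102 and -186. The searched windows were not limited to bases outside exons. Those of PLAUR and SERPINA1 lay wholly in annotated exons of the gene (250 bases each), so the PLAUR match is exonic. That of SERPINE2 had 164 exonic bases, at a start 646 bases from that of the reference transcript. Among all 35116 RefSeq promoters of the same length, 6.6% held at least 1 match and 0.4% held 2 or more. The GC box letters GGGCGG, searched in the same way, were found in 4 of the 8 (4 times in F3, 3 times in PLAU, 2 times in TFPI2 and 2 times in SERPINE2) and in 42.6% of all promoters. The core of the hypoxia response element, ACGTG, was found in 0 of the 8 at these starts, against 18.5% of all promoters, which include alternative starts. At a second start of SERPINE2, farther from that of the reference transcript, it was found 2 times, in overlapping matches. The letters were thus present in genes that rose (F3, TFPI2), in one that did not pass the test (PLAUR) and in one without reads (SERPINB2), and they are a description of these windows only.

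The lines with and without PBRM1 (3 samples each) were compared to ask which genes of the system differ between them. Of the 8 tested genes 4 were upregulated (F3, PLAU, TFPI2 and TFPI), 0 were downregulated and 4 did not pass an adjusted p of 0.05 (limma on log2(normalized count + 1), Benjamini-Hochberg over 13303 genes). The background was high: 29.2% of all tested genes passed, 16.2% upward and 13% downward. The median log2 fold change was 0.30 over the 8 genes and -0.0036 over all tested genes. For 5 of the 8 (the 4 upregulated genes and SERPINA1) every Caki2+PBRM1 value lay above every Caki2+Vector value, a separation seen upward in 22.1% of all tested genes, downward in 19.6% and in either direction in 41.7%. The share of all tested genes that passed depended on the setting. It was 29.2% and 29.4% with pseudocounts of 0.5 and 4, 19.5% without a filter on low counts, 29.7% with at least 10 normalized counts in every sample, 30.3% with edgeR, 19.2% with DESeq2, 29.6% with TMM scaling and 30.9% with a replicate block. Leaving out Caki2+Vector A, B or C gave 31.3%, 25.7% and 26.8%, and leaving out Caki2+PBRM1 A, B or C gave 22.3%, 22.1% and 21.5%. Since the samples are bulk RNA, more transcript per cell and more cells with the transcript cannot be told apart.

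**Figure D1:**
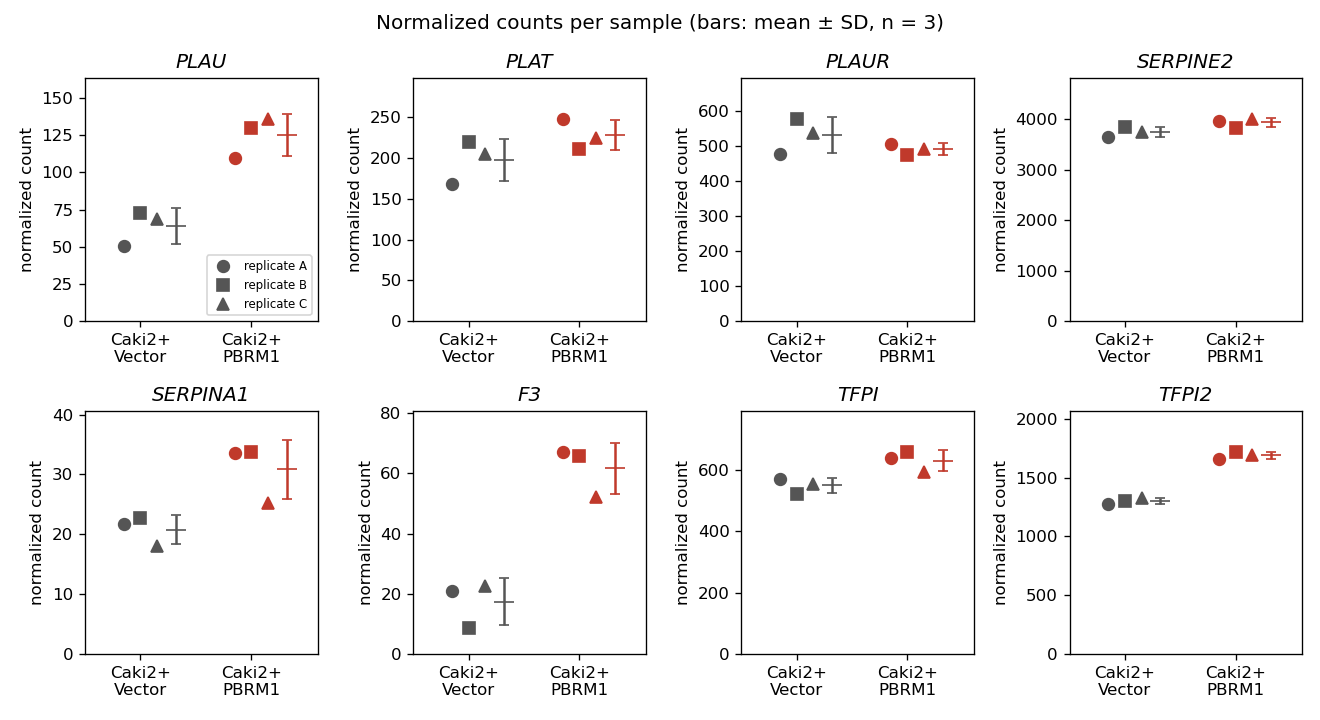
Normalized counts (y axis, from 0) of the 8 detected genes in each Caki2+Vector (grey) and Caki2+PBRM1 (red) sample, with circles, squares and triangles for replicates A, B and C and bars for mean ± SD (n = 3). The 2 groups lie apart for PLAU, SERPINA1, F3, TFPI and TFPI2, and overlap for PLAT, PLAUR and SERPINE2.

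PLAU, which encodes urokinase (ENSG00000122861, chromosome 10 of GRCh37, 75668935 to 75677254, plus strand), had normalized counts of 50.2, 72.7 and 68.3 in Caki2+Vector A, B and C and of 109, 130 and 136 in Caki2+PBRM1 A, B and C. The lowest Caki2+PBRM1 value was above the highest Caki2+Vector value. PLAU was upregulated, with a log2 value of 0.97 for the fold change (SE 0.14, 95% interval 0.68 to 1.26, adjusted p = 4.03e-06 from limma), from a mean of 63.8 ± 11.96 to 125 ± 13.9 (SD, n = 3). Permuting the sample labels exactly gave p = 0.1, which is as low as such a test can go with 3 samples a group. C10orf55, an antisense gene that shares 915 bases of exon with PLAU on the opposite strand, had at most 1 read in a sample. The strand setting of the counting is not given in the sources used here, and reads in the shared bases may have been assigned to neither gene.

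PLAT, which encodes tissue-type plasminogen activator (ENSG00000104368, chromosome 8, 42032236 to 42065227, minus strand), had normalized counts of 169, 219 and 205 in Caki2+Vector and of 248, 212 and 225 in Caki2+PBRM1. The groups overlapped, with Caki2+Vector B above Caki2+PBRM1 B. Its log2 fold change was 0.21 (95% interval 0.01 to 0.41) with an adjusted p = 0.1 from limma. Without Caki2+Vector B the adjusted p was 0.0447 (log2 fold change 0.29), and without Caki2+Vector A it was 0.422 (log2 fold change 0.10), the ends of a range over 14 alternatives. The activators thus differed in their values: urokinase transcript had a mean fold of 1.96 and tissue-type activator transcript one of 1.16.

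PLAUR, which encodes the urokinase receptor (ENSG00000011422, chromosome 19, 44150247 to 44174699, minus strand), was the only one of the 8 with a negative value. It had normalized counts of 476, 576 and 537 in Caki2+Vector and of 506, 474 and 491 in Caki2+PBRM1. Caki2+Vector A, the library that stood apart, was as low as the Caki2+PBRM1 samples, while B and C were above all of them. The log2 fold change was -0.11 (95% interval -0.24 to 0.03, adjusted p = 0.24 from limma). Without Caki2+Vector A it was -0.18 (adjusted p = 0.0158), and over the 14 alternatives the adjusted p ran from 0.0158 to 0.685. The number of PLAU reads per PLAUR read, as a ratio of normalized counts, was 0.105, 0.126 and 0.127 in Caki2+Vector and 0.216, 0.274 and 0.277 in Caki2+PBRM1. The ratio of ligand to receptor transcript was higher in every Caki2+PBRM1 sample (exact permutation p = 0.1, the lowest value possible here). Benjamini-Hochberg adjustment over 4 ratios, all at this value, left it at 0.1.

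Among the serpins, SERPINE2, which encodes protease nexin-1, an inhibitor of thrombin, urokinase and plasmin (ENSG00000135919, chromosome 2, 224839762 to 224904035, minus strand), was by far the most abundant. Its normalized counts were 3650, 3844 and 3753 in Caki2+Vector and 3970, 3830 and 4003 in Caki2+PBRM1. The groups overlapped by 1 sample, and the log2 fold change of 0.07 had a 95% interval of -0.01 to 0.14 (adjusted p = 0.162 from limma). A change in either direction of the size seen for TFPI2 is outside this interval.

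SERPINA1, which encodes alpha-1-antitrypsin, the main plasma inhibitor of neutrophil elastase (ENSG00000197249, chromosome 14, 94843084 to 94857030, minus strand), was scarce. It had 23, 24 and 15 reads in Caki2+Vector and 31, 38 and 30 reads in Caki2+PBRM1, or normalized counts of 21.8, 22.7 and 18.0 against 33.6, 33.8 and 25.2. The groups did not overlap, yet the log2 fold change of 0.54 (95% interval 0.08 to 1.00) missed the threshold (adjusted p = 0.0695 from limma), and did so under all 14 alternatives (adjusted p from 0.057 to 0.264). The 3 hepatocyte markers, whose tissue is the main source of alpha-1-antitrypsin, were at 0 in all samples.

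SERPINB2, which encodes plasminogen activator inhibitor 2 (ENSG00000197632, chromosome 18, 61538926 to 61571122, plus strand), had 0 reads in each of the 6 libraries. A count of 0 allows up to 3 reads per library, or 2.52 to 3.60 normalized counts. No fold was therefore computed.

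F3, which encodes tissue factor (ENSG00000117525, chromosome 1, 94994729 to 95007315, minus strand), had the largest change of the 8 tested genes. It had 22, 9 and 19 reads in Caki2+Vector and 62, 74 and 62 reads in Caki2+PBRM1. These correspond to normalized counts of 20.8, 8.50 and 22.8 against 67.2, 65.8 and 52.0. Each Caki2+PBRM1 sample was thus above 50 and each Caki2+Vector sample under 25. F3 was upregulated by a log2 fold change of 1.87 (SE 0.28, 95% interval 1.29 to 2.45, adjusted p = 3.49e-05 from limma), a mean fold of 3.55, and it ranked 54 from the top among the 13303 tested genes. Caki2+Vector B was the lowest sample, and its 9 reads have an exact Poisson interval of 4.1 to 17.1 reads (95%, counting error only). Without this library the log2 fold change was 1.45 (adjusted p = 1.13e-05), the lowest value of 13 alternatives, all of which kept the call.

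TFPI, which encodes the tissue factor pathway inhibitor (ENSG00000003436, chromosome 2, 188328957 to 188430487, minus strand), had normalized counts of 571, 522 and 556 in Caki2+Vector and of 640, 660 and 593 in Caki2+PBRM1. The groups lay apart by little, with Caki2+PBRM1 C next to Caki2+Vector A. TFPI was upregulated by a log2 fold change of 0.20 (SE 0.06, 95% interval 0.07 to 0.32, adjusted p = 0.0133 from limma). The call was lost with DESeq2 (adjusted p = 0.0609) and without Caki2+Vector B (0.0691), Caki2+PBRM1 A (0.0649) or Caki2+PBRM1 B (0.101), while without Caki2+Vector A the adjusted p was 0.00165.

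TFPI2 (ENSG00000105825, chromosome 7, 93514708 to 93520065, minus strand) had normalized counts of 1273, 1302 and 1326 in Caki2+Vector and of 1658, 1718 and 1694 in Caki2+PBRM1. The spread within each group was about 2% of its mean (coefficients of variation of 2.0% and 1.8%), and the groups lay far apart. TFPI2 was upregulated by a log2 fold change of 0.38 (SE 0.04, 95% interval 0.29 to 0.47, adjusted p = 6.16e-08 from limma), and this call held in all 14 alternatives. GNGT1, which overlaps 44 bases of TFPI2 exon on the opposite strand, had 0 reads in every sample.

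Tissue factor transcript stayed far below that of its inhibitor in both lines. The ratio of F3 to TFPI normalized counts was 0.0365, 0.0163 and 0.0409 in Caki2+Vector and 0.105, 0.0997 and 0.0878 in Caki2+PBRM1. It was higher in every Caki2+PBRM1 sample, and so was the ratio of TFPI2 to TFPI (2.37 ± 0.131 against 2.68 ± 0.151, SD, n = 3). The exact permutation p was 0.1 for each, the lowest value possible with 3 samples a group. Adjustment over the 4 ratios left it at 0.1, since all 4 had this value.

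**Figure D2:**
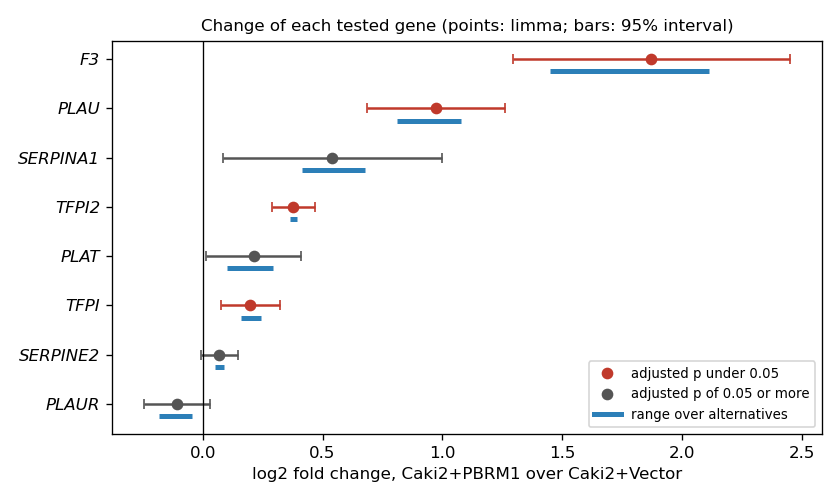
Log2 fold change (x axis) of the 8 tested genes, with 95% intervals of limma as bars, red for an adjusted p under 0.05 and grey otherwise, and in blue the range of the value over the alternative settings. F3 (1.87) and PLAU (0.97) have the largest changes, and the interval of PLAUR (-0.24 to 0.03) spans 0.

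Levels were compared between genes as normalized counts per kb of the reference transcript (GENCODE on GRCh37, which may differ in length from the annotation used for counting). In Caki2+Vector the order was SERPINE2 (mean 1684), TFPI2 (589), PLAUR (387), TFPI (142), PLAT (64.5), PLAU (27.2), F3 (7.56), SERPINA1 (6.92) and SERPINB2 (0). The ranges of neighbours did not overlap except those of F3 and SERPINA1. In Caki2+PBRM1 the order was the same, with SERPINE2 at 1767, TFPI2 at 766, PLAUR at 358, TFPI at 163, PLAT at 74.5, PLAU at 53.4, F3 at 26.8 and SERPINA1 at 10.3 per kb, and no ranges overlapped. PLAU shares 915 exon bases with C10orf55, and reads there may have been assigned to neither gene. Its level per kb may then be understated, and its place below PLAT is not certain. By these values F3 and PLAU, the genes with the largest log2 fold changes, were among those with the lowest levels per kb. The most abundant, SERPINE2, did not pass the test.

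**Figure D3:**
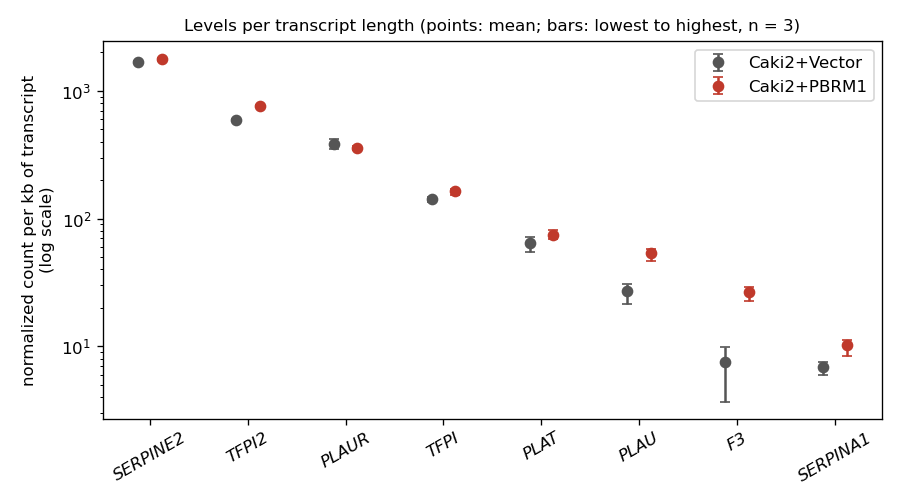
Normalized count per kb of transcript (y axis, log scale) of the 8 detected genes in Caki2+Vector (grey) and Caki2+PBRM1 (red), with points for the mean and bars from the lowest to the highest of 3 samples. The order from SERPINE2 down to SERPINA1 is the same in both groups, and PLAU and F3 show the widest gaps between groups.

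The direct partners of these genes were also measured. PLG, the gene of plasminogen, had 0 reads in each sample, and F7, F10 and F2, which encode the factors that tissue factor binds and activates and prothrombin, had means of at most 3.18 normalized counts in either group. The cells thus carried transcripts of the activators and of tissue factor with next to none of PLG, F7, F10 and F2. These are transcripts only, and proteins supplied by the serum of the medium were not measured. SERPINF2, the gene of the plasmin inhibitor alpha-2-antiplasmin, was scarce, with means of 27.9 and 26.8 normalized counts (adjusted p = 0.888 from limma).

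Of 19 genes for plasmin inhibition, plasminogen binding and clearance of the activators that were found in the files, 13 were tested. Of these 7 were upregulated and 0 downregulated, with a median log2 fold change of 0.14. The share that passed was 53.8%, against 29.2% of all tested genes (16.2% upward and 13% downward). VTN, the gene of vitronectin, missed the filter and was not tested in the main comparison. It had 13.3, 14.2 and 9.59 normalized counts in Caki2+Vector and 3.25, 6.22 and 1.68 in Caki2+PBRM1. The absence of downregulated genes in this list depended on the filter: without it 6 genes were upregulated and 1 was downregulated. Of the receptors that take up complexes of urokinase and its inhibitors, LRP1 and SORL1 were among the 7, and VLDLR did not pass (log2 fold change 0.11, adjusted p = 0.128 from limma). LRP1 went from 1487 ± 95.4 to 2490 ± 67.2 normalized counts (log2 fold change 0.75, adjusted p = 1.41e-13 from limma), and SORL1 from 1019 ± 71.4 to 1287 ± 42.3 (log2 fold change 0.34, adjusted p = 7.79e-06 from limma). MRC2, which encodes a collagen receptor that associates with the urokinase receptor, had a log2 fold change of 0.60, and IGF2R, which binds plasminogen and the urokinase receptor, one of 0.16. LRPAP1, the gene of a chaperone of LRP1, had one of 0.14 (adjusted p = 0.043 from limma), and its call was lost in 7 of 14 alternatives (without a filter, with DESeq2 and without any single library other than Caki2+Vector A, adjusted p up to 0.198). The largest change was that of THBS1, the gene of the matrix protein thrombospondin 1, with a log2 fold change of 1.23 (883 ± 23.5 against 2075 ± 68.8, SD, n = 3). ANXA2 and S100A10, which form a plasminogen receptor at the cell surface, had log2 fold changes of 0.01 (adjusted p = 0.833 from limma) and -0.0003 (adjusted p = 0.995). Processed pseudogenes of ANXA2 could have shared its reads. Of other plasminogen-binding genes, ENO1 was upregulated (log2 fold change 0.14, adjusted p = 1.88e-04 from limma), also in all 14 alternatives. PLGRKT (-0.12, adjusted p = 0.344 from limma) and HIST1H2BK (0.01, adjusted p = 0.91) did not pass.

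Of 33 coagulation genes 13 were tested, of which 3 were upregulated and 4 downregulated, with a median log2 fold change of 0.01. The share that passed was 53.8%, against 29.2% of all tested genes (16.2% upward and 13% downward). The 4 that fell were F2RL1, F2R, PROCR and F2RL2. F2RL1, the gene of protease-activated receptor 2, which the complex of tissue factor and factor VII cleaves, had normalized counts of 275, 247 and 213 in Caki2+Vector and of 115, 118 and 107 in Caki2+PBRM1. It was downregulated (log2 fold change -1.10, SE 0.10, adjusted p = 8.63e-10 from limma), while F3 rose. The thrombin receptor genes F2R and F2RL2 had log2 fold changes of -0.51 (adjusted p = 6.65e-04 from limma) and -0.26 (adjusted p = 0.0141), and PROCR, the receptor of protein C, one of -0.27 (adjusted p = 0.0180). Other receptors of the list did not pass: F2RL3, a further thrombin receptor gene, had a log2 fold change of 0.36 (adjusted p = 0.31 from limma) at means of 17.4 and 22.7 normalized counts, and THBD, the gene of thrombomodulin, one of -0.14 (adjusted p = 0.212, or 0.00888 without Caki2+Vector A). The calls of F2RL2 and PROCR were lost with DESeq2 (adjusted p = 0.0841 and 0.0821). That of F2RL2 was also lost without Caki2+Vector C (0.0551) or Caki2+PBRM1 A (0.0802), and that of PROCR without Caki2+PBRM1 C (0.141). Of those upregulated, VKORC1 and GGCX encode enzymes of the vitamin K cycle that modifies clotting factors (log2 fold changes of 0.55 and 0.22), and TGM2 encodes a transglutaminase (0.38).

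Of 31 serpins other than those 3, with SERPINF2 counted here as well, 11 were tested, 3 were upregulated and 1 was downregulated, and 11 had no read in any sample (median log2 fold change 0.17). The share of tested genes that passed was 36.4%, near the 29.2% of all tested genes. SERPINB5, which encodes maspin, a serpin without protease inhibition, rose from 889 ± 17.4 to 1281 ± 45.6 (SD, n = 3; log2 fold change 0.53, adjusted p = 6.96e-10 from limma). SERPINB9, the granzyme B inhibitor, had a log2 fold change of 0.62 (adjusted p = 2.54e-03 from limma) at means of 48.0 and 74.2. SERPINH1, a collagen chaperone, had one of 0.28, and its call was lost with DESeq2 (adjusted p = 0.0753) and without Caki2+PBRM1 B (0.0744). SERPINB1, an inhibitor of neutrophil proteases, was the one that fell (log2 fold change -0.21, adjusted p = 5.48e-03 from limma), and this call was lost without Caki2+PBRM1 A (adjusted p = 0.0612).

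**Figure D4:**
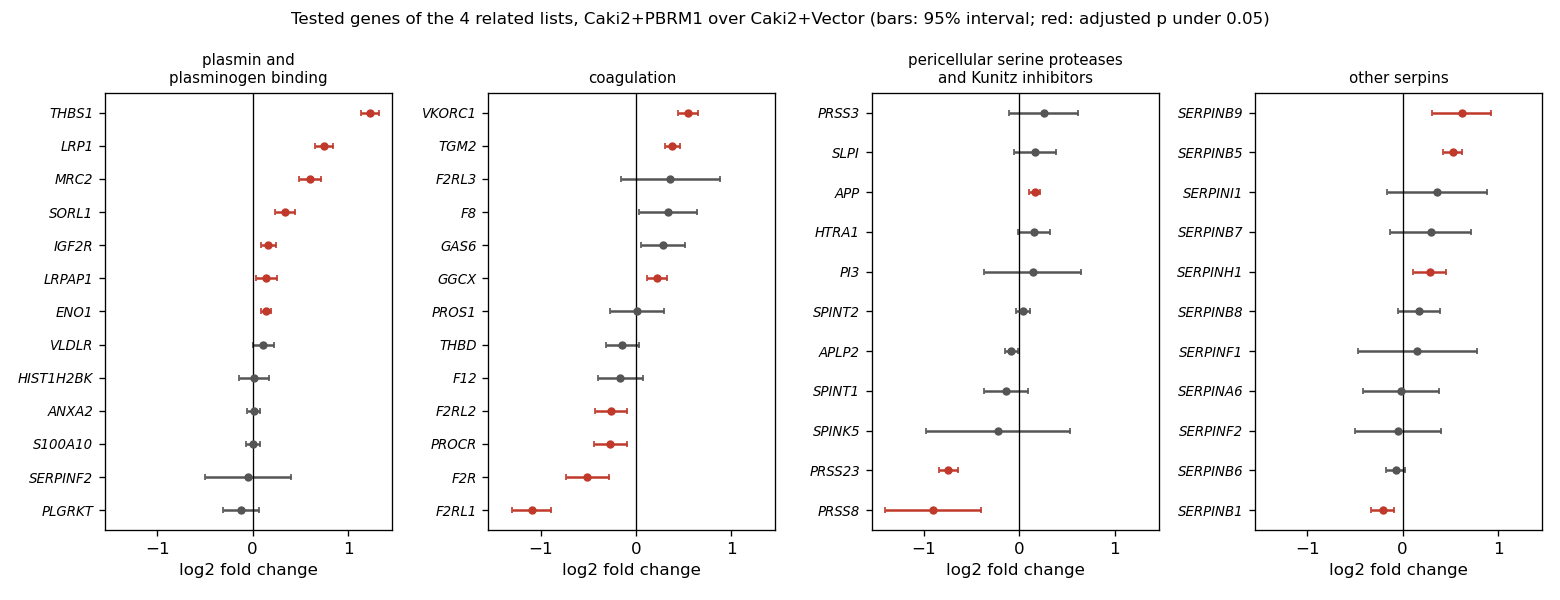
Log2 fold change (x axis) of every tested gene of 4 related lists, with 95% intervals of limma as bars, red for an adjusted p under 0.05 and grey otherwise. In the plasmin and plasminogen binding list all 7 genes in red lie to the right of 0, whereas the coagulation list has 3 genes in red on the right and 4 on the left (F2RL2, PROCR, F2R and F2RL1).

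The profile of F3 over the 6 samples was set beside those of the other 13302 tested genes by Pearson correlation of log2(normalized count + 1). The most alike were FAM13A (r = 0.997), ANKRD1 (r = 0.996) and TAOK1 (r = 0.996). These are descriptions over 6 points from 2 groups that share their libraries, and Caki2+Vector B was the lowest sample for F3 and for each of these 3 genes. Their log2 fold changes were smaller than that of F3, at 0.30, 0.41 and 0.21.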

How the data were processed

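Poly(A) RNA of 3 Caki2+Vector and 3 Caki2+PBRM1 samples was sequenced as paired-end reads. The authors removed adapters, poor reads and rRNA reads, used STAR to align what remained (build hg19) and counted reads per gene (htseq-count, UCSC annotation). The deposited values are normalized counts, a signal that the authors obtained by dividing the reads of each gene by a DESeq2 size factor (0.834 to 1.191), with no division by length. Every value was a whole multiple of 1 step per file (100% within 0.01 reads), so whole reads were recovered.

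Groups and replicate letters were taken from the sample titles. Genes with at least 10 normalized counts in at least 3 samples (13303 of 25369) were compared as log2(normalized count + 1) by limma. Its version was 3.58.1, with the trend and robust options, under R 4.3.3, and the threshold was an adjusted p under 0.05. A larger pseudocount lowered the log2 fold change of the low gene F3 (1.91 with 0.5, 1.69 with 4). The main value of F3, 1.87, was nevertheless not an understated one beside edgeR (1.84) and DESeq2 (1.85). Folds given as mean folds are ratios of group means. Exact permutation tests were two-sided. edgeR 4.0.16 and DESeq2 1.42.0 on the recovered reads, other pseudocounts, filters, scaling, a replicate block and leaving out each sample were alternatives; the filtered genes stayed the same when a sample was left out. The fits were tested on simulated data. The limits given for counts of 0 cover counting error only.

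The 9 genes and the lists were chosen with earlier results of these data known. Named beyond them were, per list, at most 6 genes past the threshold by size of change with a mean of at least 10, and PLG, F7, F10, F2 and SERPINF2. GGCX, ANXA2, S100A10, ENO1, PLGRKT, HIST1H2BK, VTN, VLDLR, F2RL3, THBD, SPINT1, SPINT2 and the genes overlapping PLAU and TFPI2 were named after their values were seen. Marker lists of renal epithelium, endothelium, blood, fibroblast and muscle, and hepatocytes were checked; the summed blood markers (177 to 228 normalized counts in all samples) came almost wholly from ITGAM, and all 4 fibroblast and muscle markers reached 10 normalized counts (summed 133 to 178). Positions and transcript lengths are from GENCODE v44lift37 on GRCh37, matched by symbol. One gene of the lists is not reported here and was left out of their counts. No sequencing batch is given in the sources used here.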

Additional observations from a re-analysis of the deposited data

How the results depend on the processing

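Calls of F3, PLAU and TFPI2 held under every alternative that gave a value; F3 has no value when 10 normalized counts are needed in every sample, which leaves 3 of the 9 genes upregulated. With DESeq2, 1057 genes of all tested fell, against 1734 with limma, TFPI had 0.20 (adjusted p = 0.0609), 2 coagulation genes and 1 pericellular protease gene fell. With no filter on low counts, 1 gene of the plasmin list fell, and 6 coagulation genes and 2 of the pericellular list rose. With 1 sample left out in turn, log2 fold changes ran from 0.16 to 0.24 for TFPI, from -0.1826 to -0.0452 for PLAUR, from 0.10 to 0.29 for PLAT and from -0.16 to 0.09 for SERPINF2, which turned positive without Caki2+Vector C (0.0859) and without Caki2+PBRM1 C (0.0611); 0 to 1 of the 9 genes and 0 to 1 of the other serpins fell. The causes were not tested. With the replicate letter as a replicate block, 4107 genes passed (3886 without it), the 4 upregulated genes stayed at 4, and no call of a gene named above from the 9 changed. Deviations of samples with the same letter were not correlated (r of -0.008 to 0.014 across genes, which are not independent replicates). No pairing by letter was thus seen, but one that moves few genes would not show in this value. Depth limits SERPINA1 and F3, with as few as 15 and 9 reads in a sample.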

Other observations

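Of 26 genes of other serine proteases of the cell surface and of Kunitz and related inhibitors, 11 were tested, of which 1 was upregulated and 2 were downregulated, with a median log2 fold change of 0.04. The share that passed was 27.3%, near the 29.2% of all tested genes. PRSS23, a secreted serine protease gene, fell from 1227 ± 46.7 to 731 ± 5.61 normalized counts (SD, n = 3; log2 fold change -0.75, adjusted p = 6.87e-13 from limma), with every Caki2+PBRM1 value under every Caki2+Vector value. PRSS8, which encodes prostasin, an activator of the epithelial sodium channel, fell from a mean of 28.8 (SD 4.51) to one of 15 (SD 3.11, n = 3), a log2 difference of -0.91 with an adjusted p = 5.80e-03 from limma, a call lost with DESeq2 (adjusted p = 0.0543). APP, whose longer isoforms carry a Kunitz domain, rose from 18859 ± 554 to 21089 ± 236 (log2 fold change 0.16, adjusted p = 7.95e-05 from limma). SPINT1 and SPINT2, Kunitz inhibitors of matriptase and of the activator of hepatocyte growth factor, had log2 fold changes of -0.14 (adjusted p = 0.369 from limma) and 0.04 (adjusted p = 0.466).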
